A study of Arabidopsis thaliana with 12 samples.

Results

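The serine carboxypeptidase-like (SCPL) and β-glucosidase (BGLU) genes of Arabidopsis thaliana are 2 large families of secreted and vacuolar enzymes, and their transcripts were followed here in leaf RNA on Affymetrix ATH1 arrays. Members were the probe sets annotated to exactly 1 gene whose symbol begins with SCPL or BGLU, in upper or lower case, without BGLU28. The rule found 48 of the 22746 probe sets tested, 29 SCPL and 19 BGLU, each of a different gene. By symbol or synonym RefSeq lists 51 SCPL and 47 BGLU genes, and those not matched to a probe set of their own were not analysed. Na2S is given at the labelled dose of 200 mM, which could not be checked here and may be a slip for a lower unit. The 12 arrays fall into 4 groups of 3: des1-1 watered with 200 mM Na2S (des1 Na2S), des1-1 watered with water only (des1 water), wild type Col-0 watered with 200 mM Na2S (WT Na2S) and wild type Col-0 watered with water only (WT water). All plants were 30 days old, of the Col-0 background, grown on soil in long days, and watered with Na2S or water for the last 10 days. The des1-1 allele is a T-DNA insertion in DES1, a cytosolic enzyme that splits L-cysteine and frees sulfide, and it is the only line used, so an effect of DES1 and of anything else that line carries cannot be told apart. Sulfide and sodium, which Na2S delivers together, cannot be told apart either, and DES1 transcript was not analysed here.

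SCPL proteins share the fold and catalytic triad of serine carboxypeptidases. Some cut the last residue from proteins, among them the vacuolar carboxypeptidase Y, while others have become acyltransferases that move sinapoyl or benzoyl groups from glucose esters onto malate, choline, anthocyanins and glucosinolates. BGLU proteins are glycoside hydrolases that release glucose from stored conjugates. In leaves their known substrates include flavonol glycosides, the coumarin scopolin, monolignol glucosides, the glucose ester of abscisic acid and glucosinolates, and one branch fills the ER bodies, spindle-shaped stores of β-glucosidase used in defence.

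Values are log2 expression values, used as deposited, and array medians lay between 5.71 and 5.80. Differences between groups are log2 differences ± their limma standard error (SE, n = 3 arrays per group), and a call is a limma adjusted p below 0.05 over all 22746 probe sets. Probe sets whose 4 group means all lay below 4.81, the 40th percentile of probe set means, are called dim. Of the leaf markers listed, 4 of 6 were measured, and the Rubisco activase gene RCA read between 14.16 and 14.55 on every array. The summed leaf markers lay at 49.48 to 49.81 in des1 Na2S, 47.12 to 47.34 in des1 water, 49.29 to 49.63 in WT Na2S and 54.24 to 54.71 in WT water. PORB, a chlorophyll synthesis gene on that list, read 7.63 to 7.73 in des1 Na2S, 6.02 to 6.25 in des1 water, 7.55 to 7.64 in WT Na2S and 12.44 to 12.71 in WT water. Without PORB the other 3 summed to 41.75 to 42.14 in des1 Na2S, 41.09 to 41.14 in des1 water, 41.68 to 41.99 in WT Na2S and 41.80 to 42.0 in WT water. Under water RCA was higher in des1 (0.32 ± 0.0894, limma adjusted p = 0.006), and LHCB4.1 (-0.64 ± 0.10) and PSAN (-0.49 ± 0.10), genes of the photosystems, were lower. Guard cell markers (2 of 3 measured) summed to 17.22 to 17.31 in des1 Na2S, 15.38 to 15.88 in des1 water, 16.52 to 16.86 in WT Na2S and 16.81 to 17.44 in WT water. The phloem marker SWEET11 (1 of 2) read 11.26 to 11.53 in des1 Na2S, 11.95 to 12.01 in des1 water, 11.52 to 11.62 in WT Na2S and 10.53 to 10.66 in WT water. The trichome marker TRY (1 of 3) read 8.67 to 8.86 in des1 Na2S, 7.95 to 8.35 in des1 water, 9.03 to 9.13 in WT Na2S and 6.14 to 6.56 in WT water. The root marker EXPA7 (1 of 5) lay between 3.52 and 4.25 on all arrays, near the lower quartile of 3.81. No flower or seed marker was matched to a probe set. The part of these markers in the results below was not tested, and in whole leaves fewer cells of a type and less RNA per cell cannot be told apart.

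Both families hold bright members that differed between the groups and dim members that mostly did not. Brighter probe sets were called more often over the whole array too. In des1 against WT under water 63.5% of those with means at or above 4.81 were called, against 44.7% of all. Of 29 SCPL probe sets 14 were dim, and of 19 BGLU probe sets 12 were dim, against 8350 of all 22746 tested. The range between the lowest and the highest group mean had a median of 0.42 over SCPL and 0.34 over BGLU, against 0.40 over all tested probe sets. BGLU44 stood at the top of both families with a range of 4.05, and the largest SCPL range was 1.34, for SCPL25.

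**Figure D1:**
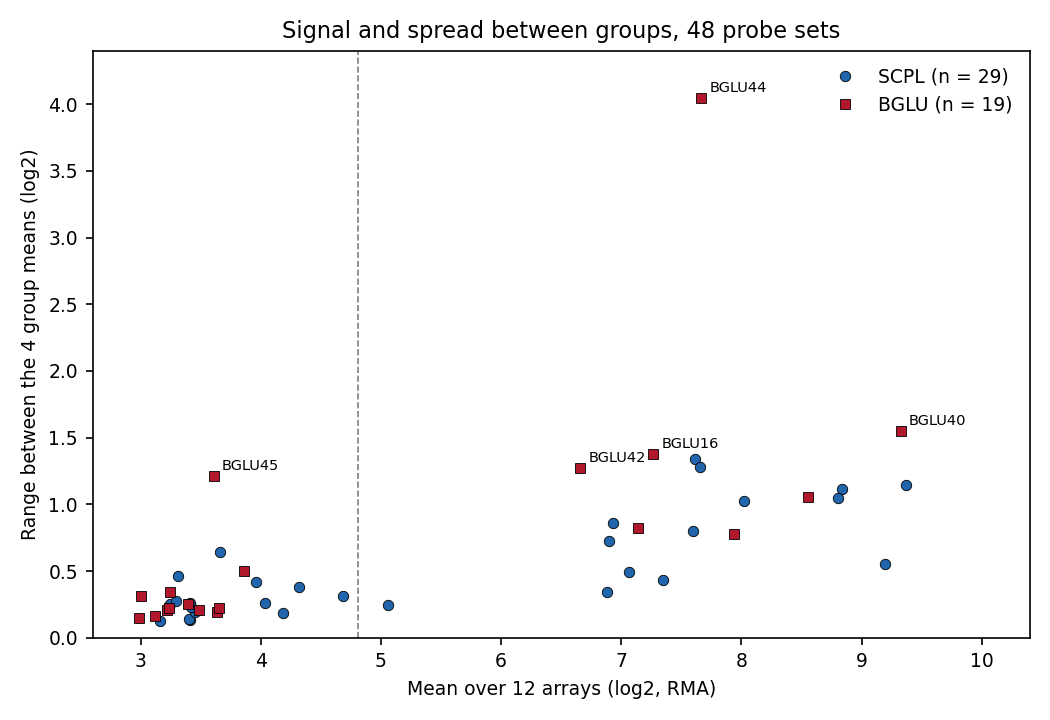
Mean over the 12 arrays (x axis, log2) against the range between the 4 group means (y axis, log2) for 29 SCPL probe sets (circles) and 19 BGLU probe sets (squares); the dashed line marks 4.81, the limit for dim probe sets, and the BGLU members with a range above 1.2 are labelled. BGLU44 lies apart at 4.05, and of the dim members BGLU45 alone has a range above 1.

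The first comparison asks how loss of DES1 alters leaf transcripts under plain water. SCPL genes went both ways: 4 of 29 were higher in des1, 9 were lower and 16 did not pass. That is 44.8% called, against 44.7% of all tested probe sets (22% higher and 22.6% lower). The share of SCPL genes called was close to that of all probe sets, and the SCPL median difference was -0.11, against 0.01 over all probe sets. Of 19 BGLU genes 3 were higher, 6 were lower and 10 did not pass, a share of 47.4%, with a median of -0.04. These shares pool bright and dim members. Of the members that were not dim, 12 of 15 SCPL genes (80%) and 7 of 7 BGLU genes (100%) were called. Over all probe sets with means at or above 4.81, a slightly different cut, the share was 63.5%. Of the dim members 1 of 14 SCPL and 2 of 12 BGLU genes were called. Whether the shares differ was not tested. By at least 2-fold, SCPL48 and BGLU45 were higher, and SCPL25, SCPL26, SCPL35, SCPL45, BGLU16, BGLU42 and BGLU44 were lower. That is 9 of 48 members, 2 higher and 7 lower. Over all tested probe sets 3018 of 22746 were called at 2-fold, 1528 higher and 1490 lower.

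Among the SCPL genes, 4 were lower in des1 water than on any of the other 9 arrays, namely SCPL25, SCPL35, SCPL45 and SCPL50; over all tested probe sets 12.7% lay lowest in des1 water in this way. SCPL25 (AT3G02110) read 7.94, 7.85 and 8.13 in des1 Na2S, 6.60, 6.69 and 6.65 in des1 water, 8.03, 8.02 and 7.92 in WT Na2S and 7.80, 7.92 and 7.85 in WT water. Its 3 des1 water arrays lie more than 1 log2 unit below all others, and the other 3 groups overlap. The difference between des1 and WT was -1.21 ± 0.0986 (limma adjusted p = 9.88e-09) under water and -0.02 ± 0.0986 under Na2S, and Na2S raised it in des1 by 1.33 ± 0.0986. SCPL45 (AT1G28110) read 7.76, 7.89 and 7.85 in des1 Na2S, 6.88, 6.80 and 6.80 in des1 water, 7.87, 7.84 and 7.83 in WT Na2S and 8.09, 8.01 and 8.22 in WT water. Here too des1 water was lowest, and WT water was above every other array. Its genotype difference was -1.28 ± 0.094 (limma adjusted p = 2.42e-09) under water and -0.01 ± 0.094 under Na2S.

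SCPL35 (AT5G08260) read 8.30, 8.21 and 8.35 in des1 Na2S, 7.52, 7.35 and 7.10 in des1 water, 7.98, 8.28 and 8.17 in WT Na2S and 8.33, 8.49 and 8.22 in WT water. SCPL50 (AT1G15000) read 7.10, 7.09 and 7.40 in des1 Na2S, 6.35, 6.34 and 6.32 in des1 water, 7.13, 7.07 and 6.94 in WT Na2S and 7.20, 7.21 and 7.06 in WT water. In both genes des1 water alone stood low and the remaining 3 groups overlapped. Under water SCPL35 differed between des1 and WT by -1.02 ± 0.12 (limma adjusted p = 1.14e-06) and SCPL50 by -0.82 ± 0.11. With Na2S both were higher in des1 than with water, SCPL35 by 0.96 ± 0.12 and SCPL50 by 0.86 ± 0.11.

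A second set of SCPL genes stood out in WT water, where 5 lay above all other arrays (SCPL26, SCPL31, SCPL42, SCPL45 and SCPL49; 11.5% of all probe sets did so) and 2 below them (SCPL46 and SCPL48; 10.5% of all). SCPL49 (AT3G10410) is listed by RefSeq as carboxypeptidase Y, a vacuolar peptidase. It read 7.17, 7.57 and 7.32 in des1 Na2S, 7.60, 7.40 and 7.53 in des1 water, 7.42, 7.19 and 7.50 in WT Na2S and 8.30, 7.90 and 8.26 in WT water. Both des1 groups and WT Na2S overlapped below WT water, and the difference between des1 and WT under water was -0.64 ± 0.13 (limma adjusted p = 0.000489). SCPL26 (AT2G35780) read 8.65, 8.31 and 8.75 in des1 Na2S, 8.27, 8.60 and 8.54 in des1 water, 8.84, 8.83 and 8.52 in WT Na2S and 9.54, 9.63 and 9.58 in WT water, a genotype difference of -1.11 ± 0.13 (limma adjusted p = 9.55e-07) under water. SCPL48 (AT3G45010), whose protein is a close relative of carboxypeptidase Y, went the other way. It read 9.64, 9.70 and 9.59 in des1 Na2S, 9.63, 9.61 and 9.54 in des1 water, 9.69, 9.73 and 9.66 in WT Na2S and 8.35, 8.72 and 8.58 in WT water, so that WT water alone was low. SCPL48 and SCPL49 thus moved in opposite directions between des1 and WT under water, since SCPL48 rose by 1.04 ± 0.10.

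SCPL46 (AT2G33530) read 9.11, 9.18 and 9.18 in des1 Na2S, 8.40, 8.93 and 9.11 in des1 water, 9.13, 9.06 and 9.18 in WT Na2S and 8.37, 7.67 and 8.28 in WT water. WT water was low with a wide spread, and under water des1 was higher by 0.71 ± 0.17 (limma adjusted p = 0.00231). SCPL20 (AT4G12910) and SCPL29 (AT4G30810) were the 2 SCPL genes above all other arrays in des1 water, as were 13.6% of all probe sets. SCPL20 read 6.60, 6.76 and 6.78 in des1 Na2S, 7.47, 7.30 and 7.33 in des1 water, 6.79, 6.92 and 6.90 in WT Na2S and 6.60, 6.67 and 6.65 in WT water, a rise of 0.73 ± 0.0964 in des1 under water. SCPL29 averaged 9.12 ± 0.17 in des1 Na2S, 9.50 ± 0.11 in des1 water, 9.23 ± 0.0721 in WT Na2S and 8.95 ± 0.18 in WT water (SD, n = 3 each), a rise of 0.55 ± 0.12 under water. SCPL16 (AT3G12220) was dim but was the one SCPL gene whose WT Na2S arrays lay above all others (1.08% of all probe sets). It read 3.67, 3.61 and 3.82 in des1 Na2S, 3.25, 3.34 and 3.52 in des1 water, 4.26, 3.94 and 3.83 in WT Na2S and 3.60, 3.60 and 3.51 in WT water.

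**Figure D2:**
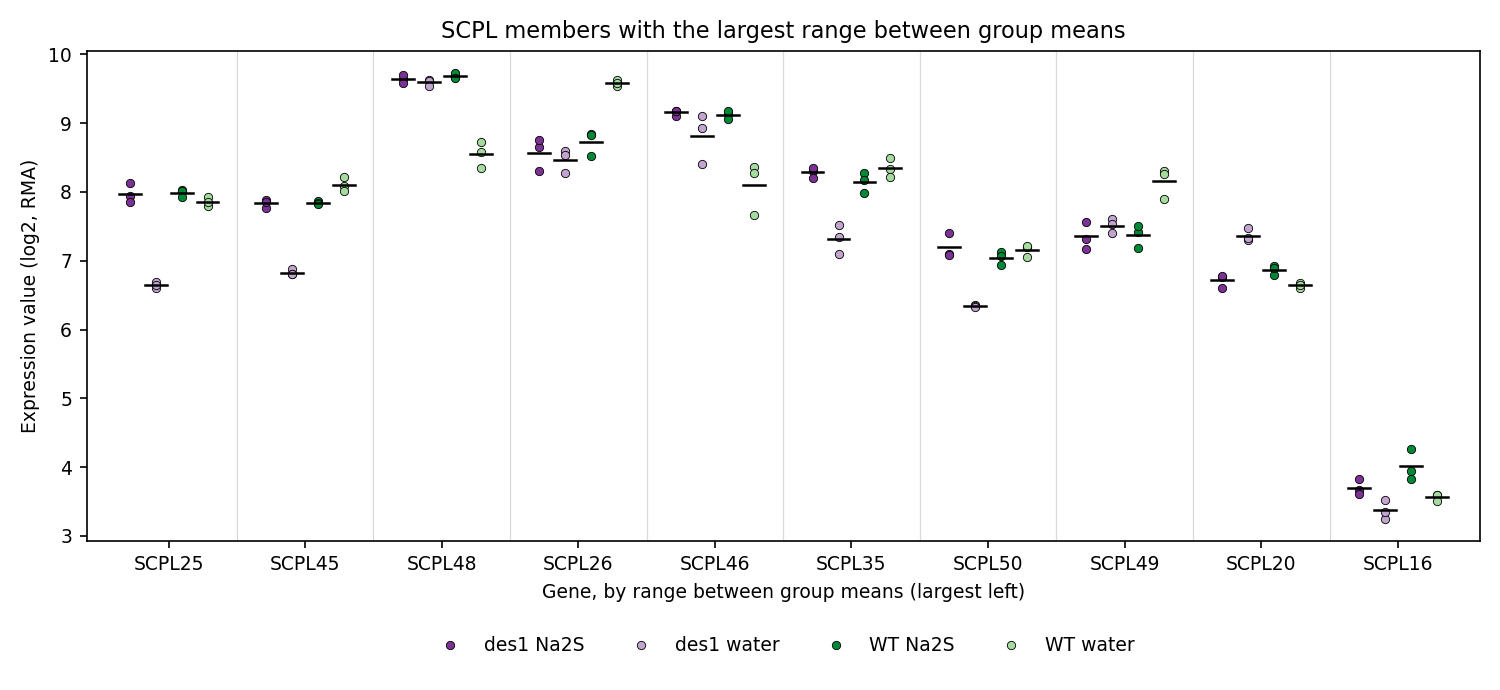
Log2 expression values (y axis) of the 10 SCPL genes with the largest range between group means (x axis), with a point per array, a bar at each group mean, and the groups ordered des1 Na2S, des1 water, WT Na2S and WT water within each gene. SCPL25, SCPL45, SCPL35 and SCPL50 are low in des1 water, SCPL48 and SCPL46 are low in WT water, and SCPL26 and SCPL49 are high in WT water.

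The other 3 SCPL calls under water were of smaller size. SCPL27 (AT3G07990) differed by -0.49 ± 0.11 (limma adjusted p = 0.000809), SCPL42 (AT5G42240) by -0.43 ± 0.10 and the dim gene SCPL31 (AT1G11080) by -0.46 ± 0.11. In each of these 3 genes, already picked as called, the des1 water and WT water arrays did not overlap. The share of all probe sets without overlap between these groups is not given here. SCPL34 (AT5G23210, -0.11 ± 0.11), SCPL23 (AT2G24010, -0.0033 ± 0.15) and SCPL47 (AT5G22980, 0.02 ± 0.11) were not dim and did not pass. The other dim SCPL genes that did not pass under water were SCPL16, SCPL18, SCPL21, SCPL22, SCPL28, SCPL30, SCPL32, SCPL33, SCPL38, SCPL40, SCPL41, SCPL43 and SCPL44, with differences between -0.28 (SCPL40) and 0.19 (SCPL21). SCPL41 is known as a negative regulator of membrane lipid metabolism, and its probe set stayed between 3.12 and 3.82 on all arrays. Of these dim genes SCPL40 passed when WT Na2S replicate 1 was left out (limma adjusted p = 0.0309).

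The BGLU gene that differed most was BGLU44 (AT3G18080), an enzyme that acts on β-mannosides in vitro. It read 6.86, 6.67 and 6.70 in des1 Na2S, 6.50, 6.51 and 6.61 in des1 water, 6.86, 6.92 and 6.59 in WT Na2S and 10.61, 10.55 and 10.60 in WT water. WT water stood more than 3 log2 units above every other array, and those 9 arrays lay between 6.50 and 6.92. BGLU44 was 16.5-fold lower in des1 than in WT under water (-4.05 ± 0.10, limma adjusted p = 3.07e-15), and under Na2S the genotypes differed by -0.05 ± 0.10 with a 95% interval from -0.27 to 0.17. BGLU42 (AT5G36890) frees the coumarin scopoletin from scopolin and is known from root iron uptake and induced resistance. It read 6.22, 6.53 and 6.73 in des1 Na2S, 6.36, 6.24 and 6.23 in des1 water, 6.36, 6.26 and 6.34 in WT Na2S and 7.60, 7.48 and 7.56 in WT water. BGLU16 (AT3G60130) read 7.16, 6.95 and 6.85 in des1 Na2S, 6.62, 7.19 and 7.01 in des1 water, 6.66, 7.06 and 6.91 in WT Na2S and 8.18, 8.34 and 8.24 in WT water. In both genes, as in BGLU44, WT water lay above all 9 other arrays, and the other 3 groups of BGLU42 and BGLU16 overlapped. In BGLU44 the des1 Na2S arrays also lay above the des1 water arrays. Under water BGLU42 differed between des1 and WT by -1.27 ± 0.12 and BGLU16 by -1.31 ± 0.14.

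BGLU33 (AT2G32860), also known as AtBG2, is a vacuolar enzyme that frees abscisic acid from its glucose ester. It read 8.99, 9.08 and 9.02 in des1 Na2S, 8.07, 7.96 and 7.89 in des1 water, 8.79, 8.62 and 8.56 in WT Na2S and 8.54, 8.52 and 8.61 in WT water. The des1 Na2S arrays were above all others, as in 1.86% of all probe sets, and the des1 water arrays were below all others. The genotype difference was -0.58 ± 0.0974 (limma adjusted p = 6.69e-05) under water and 0.37 ± 0.0974 under Na2S. The difference under Na2S did not pass (limma adjusted p = 0.075), but did without dim probe sets (adjusted p = 0.0491), with a trended robust variance (0.0414) and with array weights (0.00568). BGLU15 (AT2G44450), which cleaves flavonol bisglycosides, was dim. It read 4.01, 3.90 and 3.82 in des1 Na2S, 3.60, 3.70 and 3.42 in des1 water, 4.07, 3.72 and 3.90 in WT Na2S and 3.93, 4.14 and 4.15 in WT water, with des1 water lowest and a difference of -0.50 ± 0.12 under water.

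The BGLU genes of the monolignol branch rose in des1 under water or did not pass. BGLU45 (AT1G61810) and BGLU46 (AT1G61820) encode enzymes that release monolignols, the building blocks of lignin, from their glucosides, and BGLU47 (AT4G21760) is their relative. BGLU45 read 3.13, 3.27 and 3.46 in des1 Na2S, 4.35, 4.26 and 4.88 in des1 water, 3.31, 3.33 and 3.24 in WT Na2S and 3.40, 3.32 and 3.33 in WT water. Only des1 water stood above the lower quartile of the probe sets (3.81), which makes the rise of 1.15 ± 0.14 (limma adjusted p = 1.29e-06) one of a dim probe set. BGLU47 read 7.42, 7.24 and 7.39 in des1 Na2S, 6.86, 7.15 and 7.06 in des1 water, 7.40, 7.58 and 7.52 in WT Na2S and 6.64, 6.76 and 6.63 in WT water, lowest in WT water. It rose by 0.35 ± 0.10 in des1 under water (limma adjusted p = 0.0107), a call lost without des1 water replicate 2 (adjusted p = 0.0632). BGLU46 was dim in all groups and differed by -0.06 ± 0.0928. Its des1 Na2S arrays lay below all 9 others, as in 1.92% of all probe sets, while no member had its WT Na2S arrays below all others (0.8% of all).

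BGLU25 (AT3G03640), of the branch that holds the ER body β-glucosidases, was the member whose genotypes differed under both waterings. It read 7.61, 7.73 and 7.44 in des1 Na2S, 7.77, 7.59 and 7.62 in des1 water, 8.34, 8.40 and 8.38 in WT Na2S and 8.20, 8.06 and 8.09 in WT water. Every des1 array lay below every WT array, and the differences were -0.46 ± 0.10 (limma adjusted p = 0.00107) under water and -0.78 ± 0.10 (limma adjusted p = 0.000229) under Na2S. How many of all probe sets separate the genotypes in this way is not given here. BGLU19 and BGLU24, of the same branch, were dim and did not pass in any of the 6 comparisons. BGLU40 (AT1G26560) read 10.05, 9.38 and 9.97 in des1 Na2S, 8.95, 9.28 and 9.44 in des1 water, 9.91, 9.96 and 9.86 in WT Na2S and 8.37, 8.26 and 8.46 in WT water, a rise of 0.86 ± 0.15 in des1 under water. WT water was the lowest group without overlap, as for BGLU47, while the other 3 groups overlapped in part. The remaining BGLU genes, BGLU27, BGLU29, BGLU31, BGLU32, BGLU36, BGLU41 and BGLU43, were dim and did not pass under water; BGLU36 is a relative of the myrosinases, which split glucosinolates. Their differences lay between -0.27 (BGLU43) and 0.22 (BGLU41). BGLU43 passed without WT Na2S replicate 1 (adjusted p = 0.0408) and BGLU41 without des1 water replicate 3 (adjusted p = 0.0291).

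**Figure D3:**
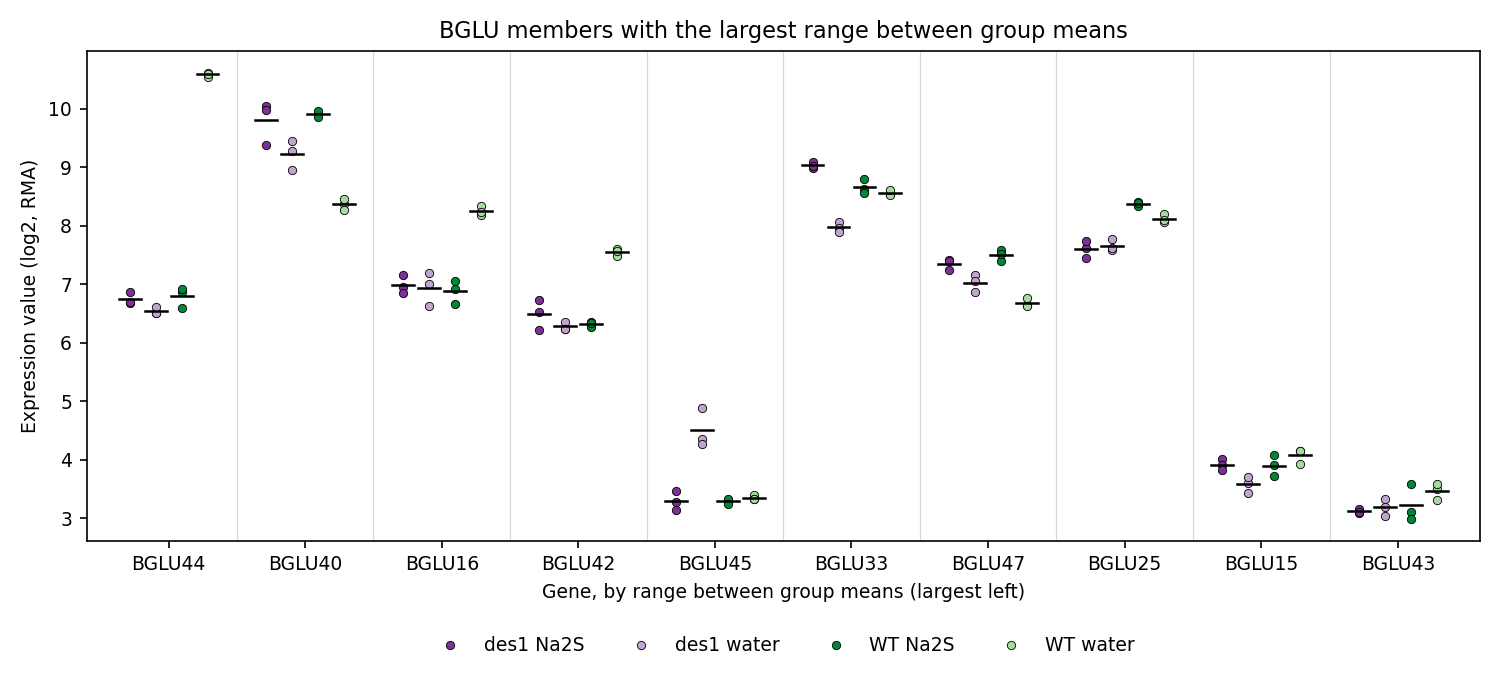
Log2 expression values (y axis) of the 10 BGLU genes with the largest range between group means (x axis), with a point per array, a bar at each group mean, and the groups ordered des1 Na2S, des1 water, WT Na2S and WT water within each gene. BGLU44, BGLU16 and BGLU42 are high in WT water alone, BGLU45 is high in des1 water alone, and all des1 arrays of BGLU25 lie below its WT arrays.

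The second comparison asks the same under Na2S, where the genotypes differed in 1 member. Of 29 SCPL genes 0 passed limma in des1 against WT, with 4 at an unadjusted p below 0.05, and 0 passed in any alternative run. Those 4 were SCPL43 (0.38 ± 0.14), SCPL16 (-0.31 ± 0.12), SCPL47 (0.25 ± 0.11) and SCPL44 (0.23 ± 0.11). Over all tested probe sets 2586 of 22746 had an unadjusted limma p below 0.05 in this comparison. Of 19 BGLU genes 1 was lower, BGLU25, or 5.26%, against 1.4% of all tested probe sets (0.585% higher and 0.813% lower). The median difference was -0.02 over SCPL, -0.04 over BGLU and -0.01 over all probe sets. For the members that differed most under water the intervals held 0: the 95% interval ran from -0.22 to 0.19 for SCPL25, from -0.21 to 0.18 for SCPL45, from -0.27 to 0.17 for SCPL48, and from -0.19 to 0.41 for BGLU16.

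**Figure D4:**
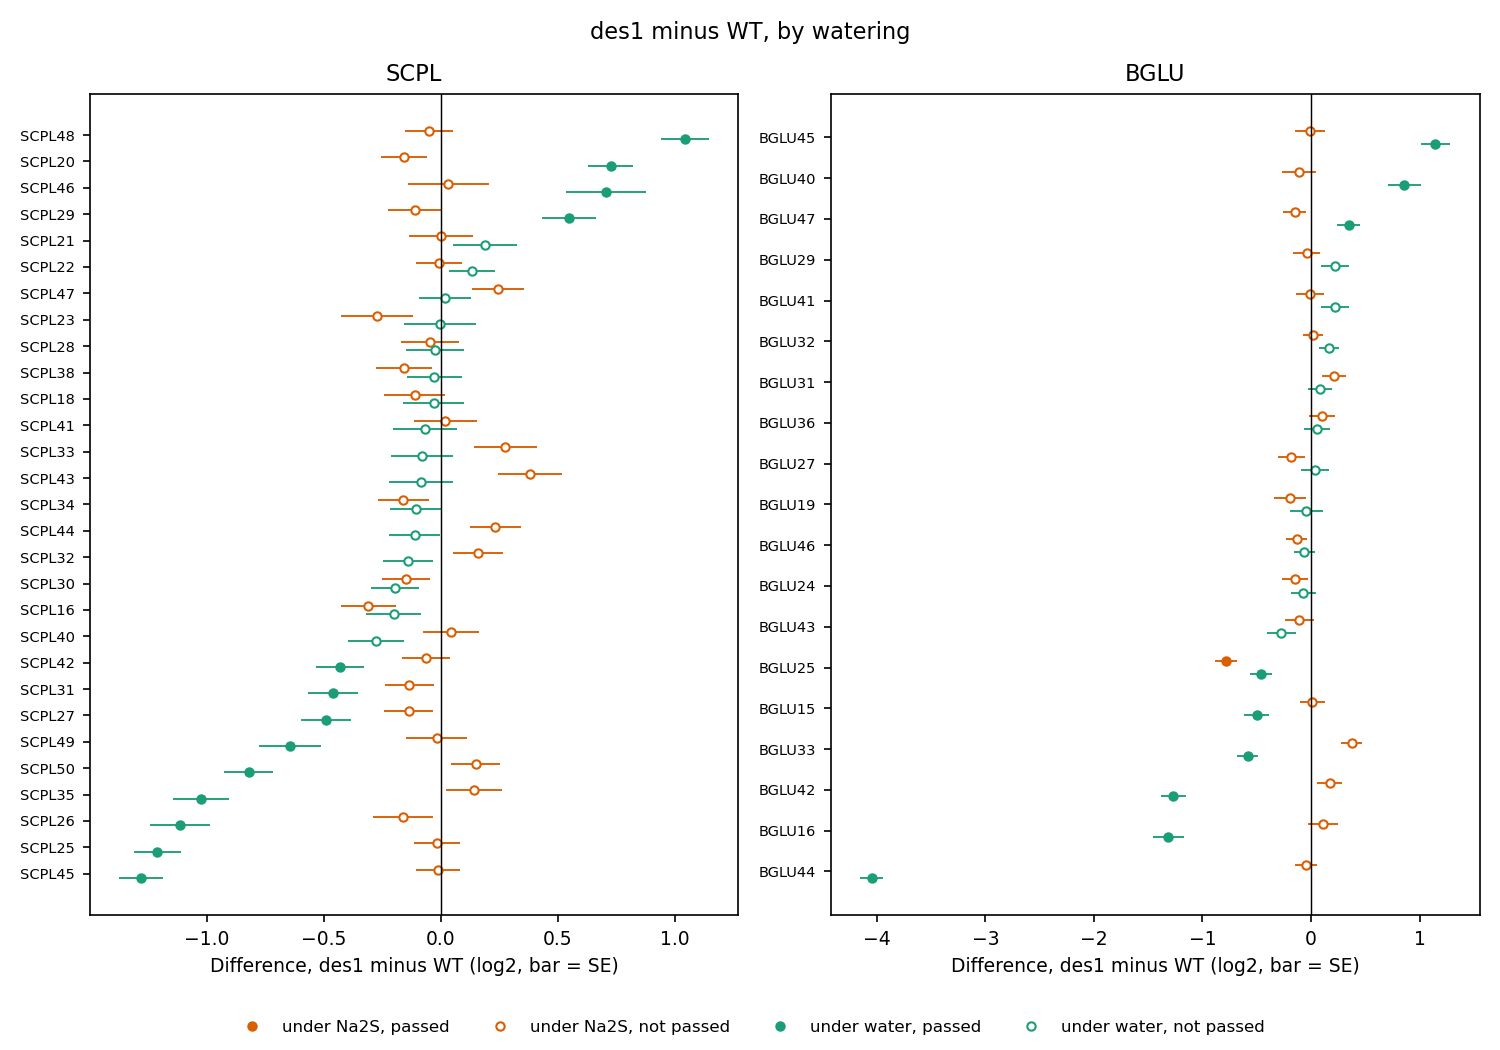
Difference between des1 and WT (x axis, log2, des1 minus WT, bars are SE) for each SCPL gene (left) and BGLU gene (right), under Na2S (orange) and under water (green), with filled points for a limma adjusted p below 0.05. Under water the differences run from -4.05 (BGLU44) to 1.15 (BGLU45), and under Na2S all lie between -0.78 (BGLU25) and 0.38 (SCPL43).

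The third comparison asks what Na2S does in leaves that lack DES1. In des1, 7 of 29 SCPL genes were higher with Na2S, 2 were lower and 20 did not pass, which is 31% called against 37.1% of all tested probe sets (17.5% higher and 19.6% lower). Of 19 BGLU genes 4 were higher, 2 were lower and 13 did not pass (31.6%). The 4 SCPL genes that stood low in des1 water rose, SCPL25 most (1.33 ± 0.0986, limma adjusted p = 6.47e-09) and SCPL45 by 1.01 ± 0.094, and both genes high in des1 water fell, SCPL20 by 0.65 ± 0.0964 and SCPL29 by 0.38 ± 0.12 on the log2 scale. These SCPL genes were picked for des1 water arrays apart from all others, which set the direction of these changes beforehand. Among BGLU genes, BGLU33 rose by 1.06 ± 0.0974, BGLU40 by 0.58 ± 0.15, BGLU15 by 0.34 ± 0.12 and BGLU47 by 0.33 ± 0.10, while BGLU45 fell by 1.21 ± 0.14 and BGLU46 fell by 0.25 ± 0.0928. BGLU44 (0.20 ± 0.10), BGLU16 (0.05 ± 0.14) and BGLU42 (0.22 ± 0.12), low in both des1 groups, did not pass. BGLU42 passed without des1 Na2S replicate 1 (adjusted p = 0.0202), and BGLU44 passed with quantile normalization again (adjusted p = 0.026). The other rises were those of dim genes, SCPL33 (0.42), SCPL43 (0.37) and SCPL16 (0.33). SCPL46 differed by 0.34 ± 0.17 without passing, and passed without des1 water replicate 3 (adjusted p = 0.0477), as did SCPL34 (adjusted p = 0.0495); SCPL44 passed without des1 water replicate 2 (adjusted p = 0.0321).

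Several of these calls depended on which arrays were in the fit. SCPL29 lost its call without des1 water replicate 1 (adjusted p = 0.0628) or des1 Na2S replicate 3 (0.0898). SCPL16 lost it without des1 water replicate 1 or 2 or des1 Na2S replicate 1 or 3 (adjusted p up to 0.144), SCPL33 without des1 water replicate 2 or des1 Na2S replicate 2 or 3 (up to 0.0909), and SCPL43 without des1 water replicate 1 or 3, des1 Na2S replicate 2, WT water replicate 1 or WT Na2S replicate 2 (up to 0.231). BGLU15 lost its call without des1 water replicate 3 or des1 Na2S replicate 1 or 2 (up to 0.136), BGLU47 without des1 water replicate 1 or des1 Na2S replicate 1 or 3 (up to 0.0895), and BGLU46 without des1 water replicate 1 or 3, any des1 Na2S array or WT Na2S replicate 2 (up to 0.119). With quantile normalization again SCPL16 (adjusted p = 0.106), SCPL43 (0.0751) and BGLU15 (0.0699) did not pass. SCPL43 did not pass either with a trended robust variance (0.0529) or array weights (0.0575), nor BGLU46 with centring (0.0843), the replicate block (0.0598) or only the compared arrays (0.0593).

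The fourth comparison asks the same of wild type leaves. Of 29 SCPL genes 3 were higher with Na2S, 4 were lower and 22 did not pass (24.1% called, against 30.4% of all tested probe sets, 15% higher and 15.4% lower). With arrays centred on their medians this split was 5 higher and 2 lower. Of 19 BGLU genes 2 were higher, 3 were lower and 14 did not pass (26.3%). The 8 genes above all other arrays in WT water read lower with Na2S by that choice alone. Of them 7 passed, and SCPL42 (-0.24 ± 0.10) did not (limma adjusted p = 0.0953). BGLU44 was 13.9-fold lower with Na2S (-3.80 ± 0.10, limma adjusted p = 1.81e-14), and BGLU16 fell by 1.38 ± 0.14, BGLU42 by 1.23 ± 0.12, SCPL26 by 0.85 ± 0.13 and SCPL49 by 0.78 ± 0.13 on the log2 scale. The genes below all other arrays in WT water likewise had to read higher with Na2S. BGLU40 rose by 1.55 ± 0.15, SCPL48 by 1.14 ± 0.10, SCPL46 by 1.02 ± 0.17 and BGLU47 by 0.82 ± 0.10. SCPL16, which was not among them, rose by 0.44 ± 0.12. Of the 15 members called in des1 and the 12 called in WT, 4 were called in both, or 26.7% of the des1 calls and 33.3% of the WT calls, against 46.4% and 56.6% over all tested probe sets: SCPL16, BGLU40 and BGLU47 rose in both, and SCPL45 rose in des1 and fell in WT. SCPL25 (0.13 ± 0.0986), SCPL35 (-0.20 ± 0.12), SCPL50 (-0.11 ± 0.11), BGLU33 (0.10 ± 0.0974) and BGLU45 (-0.06 ± 0.14), each of which changed with Na2S in des1, did not pass. BGLU43 (-0.23 ± 0.14) passed without WT Na2S replicate 1 (adjusted p = 0.0126).

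The small falls of SCPL45 (-0.26) and SCPL31 (-0.32) in wild type were lost in many settings. SCPL45 did not pass without des1 water replicate 2 or 3, des1 Na2S replicate 1 or 3, WT water replicate 1 or 3, or any WT Na2S array (adjusted p up to 0.180), nor with arrays centred on their medians (adjusted p = 0.110), the replicate block (0.0675) or only the compared arrays (0.081). SCPL31 did not pass without WT water replicate 1 or 3 or WT Na2S replicate 1 or 2 (up to 0.108), nor with arrays centred (adjusted p = 0.0705).

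**Figure D5:**
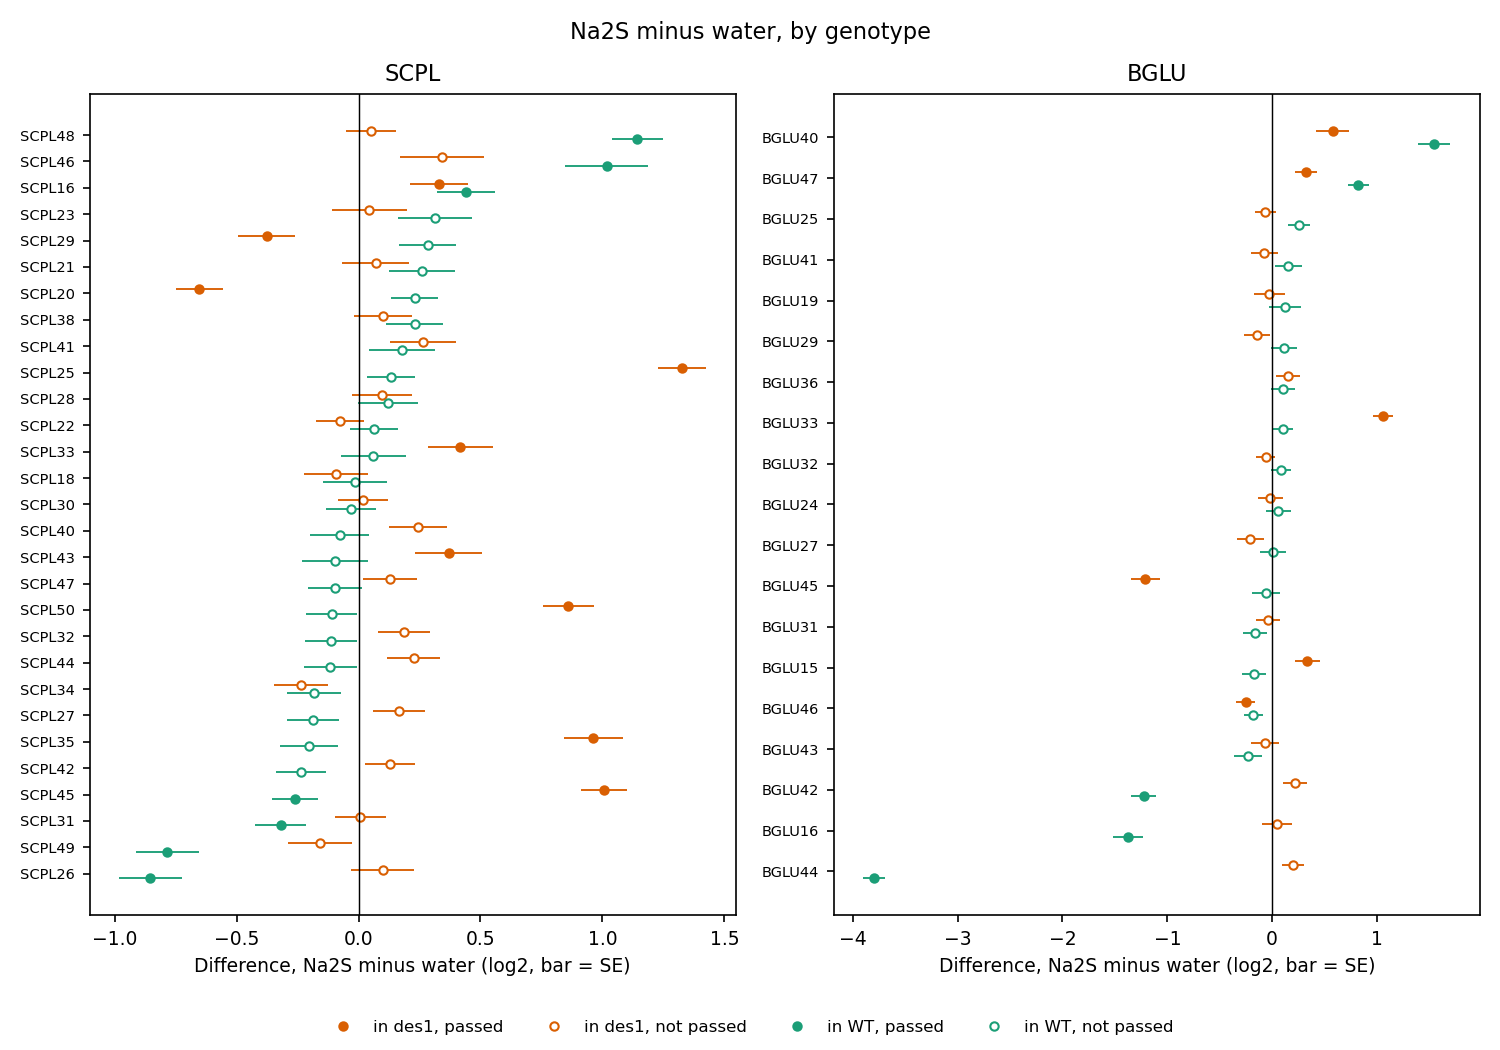
Difference between Na2S and water (x axis, log2, Na2S minus water, bars are SE) for each SCPL gene (left) and BGLU gene (right), in des1 (orange) and in WT (green), with filled points for a limma adjusted p below 0.05. SCPL25 is at 1.33 in des1 and 0.13 in WT, and BGLU44 is at 0.20 in des1 and -3.80 in WT.

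Whether the genotype difference itself depended on the watering was tested by the interaction, the difference under Na2S minus that under water. It passed for 10 of 29 SCPL genes, 6 higher and 4 lower (34.5%), and for 8 of 19 BGLU genes, 5 higher and 3 lower (42.1%), against 37.7% of all tested probe sets (18.6% higher and 19.1% lower). BGLU44 had the largest value of the members (4.0 ± 0.15, limma adjusted p = 1e-12). SCPL45 (1.27 ± 0.13), SCPL25 (1.19 ± 0.14), SCPL35 (1.17 ± 0.17), BGLU42 (1.44 ± 0.16) and BGLU16 (1.42 ± 0.20) were also above 1, and SCPL48 (-1.09 ± 0.15) and BGLU45 (-1.15 ± 0.19) below -1. Positive values here mean that the Na2S difference was higher in des1 than in WT, and negative values that it was lower in des1. The other passing genes were SCPL20 (-0.88), SCPL26 (0.95), SCPL29 (-0.66), SCPL49 (0.63), SCPL50 (0.97), BGLU33 (0.96), BGLU40 (-0.97), BGLU47 (-0.50), SCPL46 and BGLU15. The interaction of SCPL46 (-0.67 ± 0.24) was lost without des1 water replicate 2 or 3, any des1 Na2S array, WT water replicate 2 or WT Na2S replicate 1 or 3 (adjusted p up to 0.113) and with quantile normalization run again, which gave 9 higher and 3 lower SCPL genes. That of BGLU15 (0.51 ± 0.16) was lost without des1 water replicate 3 (0.0551) or WT Na2S replicate 2 (0.0599). Of the genes that did not pass, BGLU25 (-0.32) passed without des1 Na2S replicate 2 (adjusted p = 0.0474), SCPL27 (0.35) without WT water replicate 3 (0.048), SCPL33 (0.36) without des1 Na2S replicate 1 (0.0362), SCPL40 (0.32) without WT Na2S replicate 1 (0.0228), SCPL43 (0.47) without WT Na2S replicate 3 (0.0223) and SCPL44 (0.34) without des1 water replicate 2 (0.0292). SCPL42 (0.37) passed without des1 water replicate 1 (0.0371), des1 Na2S replicate 2 (0.0264) or WT water replicate 2 (0.0357).

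The last comparison sets des1 under Na2S against WT under water, the treated mutant against the untreated wild type. Of 29 SCPL genes 2 were higher, SCPL48 (1.09 ± 0.10) and SCPL46 (1.05 ± 0.17), 7 were lower and 20 did not pass (31%, against 30.3% of all probe sets, 14.2% higher and 16.1% lower). Of 19 BGLU genes 3 were higher, 5 were lower and 11 did not pass (42.1%). BGLU44 was 14.4-fold lower in des1 Na2S (-3.84 ± 0.10, limma adjusted p = 1.59e-14), BGLU16 differed by -1.27 ± 0.14 and BGLU42 by -1.05 ± 0.12, and BGLU40 (1.44 ± 0.15), BGLU47 (0.67 ± 0.10) and BGLU33 (0.47 ± 0.0974) were the 3 that were higher. SCPL25 differed by 0.12 ± 0.0986 (95% interval from -0.09 to 0.32), SCPL35 by -0.06 ± 0.12 and SCPL50 by 0.04 ± 0.11, none of which passed. SCPL26 (-1.01), SCPL49 (-0.80), SCPL31 (-0.45) and BGLU25 (-0.52) were lower.

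The other 5 lower genes lost their calls when particular arrays were left out. SCPL27 (-0.32) lost it without des1 Na2S replicate 1 or WT water replicate 1 or 2 (adjusted p up to 0.112), SCPL34 (-0.34) without des1 Na2S replicate 1 or 2 or WT water replicate 2 or 3 (up to 0.0938), and SCPL42 (-0.30) without des1 Na2S replicate 2 or WT water replicate 1 or 3 (up to 0.160). SCPL45 (-0.27) lost it without des1 Na2S replicate 1 or 3 or WT water replicate 1 or 3 (up to 0.150), and BGLU46 (-0.31) without des1 Na2S replicate 3 or WT water replicate 1 (up to 0.0718). With arrays centred on their medians none of these 5 passed, SCPL45 did not pass with the replicate block (0.0545) or only the compared arrays (0.058) either, and the SCPL split was 3 higher and 3 lower. SCPL33 and BGLU43 passed when single arrays were left out, SCPL33 without des1 Na2S replicate 1 (adjusted p = 0.0111) or WT Na2S replicate 1 (0.0498) and BGLU43 without WT water replicate 2 (0.0456) or WT Na2S replicate 1 (0.0184).

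In the gene order of assembly TAIR10.1, 8 pairs of members lie within 2 genes of each other. BGLU43 and BGLU44 are adjacent: BGLU43 averaged 3.12 ± 0.0404 in des1 Na2S, 3.18 ± 0.14 in des1 water, 3.22 ± 0.31 in WT Na2S and 3.46 ± 0.14 in WT water (SD, n = 3 each), with no call in the 6 comparisons, beside the 16.5-fold difference of BGLU44 under water. Adjacent to BGLU16 is BGLU27, which averaged 3.08 ± 0.13 in des1 Na2S, 3.28 ± 0.24 in des1 water, 3.26 ± 0.12 in WT Na2S and 3.25 ± 0.15 in WT water and had no call. SCPL28, adjacent to SCPL26, averaged 3.44 ± 0.21 in des1 Na2S, 3.34 ± 0.13 in des1 water, 3.48 ± 0.18 in WT Na2S and 3.36 ± 0.0907 in WT water, also with no call. In each of these pairs 1 neighbour was dim and the other carried the differences, and whether a dim probe set reads its gene was not tested. SCPL42 lies 2 genes from the dim SCPL41, BGLU15 lies 1 gene from BGLU29, and BGLU45 lies next to BGLU46. In the pairs SCPL22 and SCPL23, and BGLU31 and BGLU32, neither neighbour passed in any comparison. Close relatives can share probe signal, and how far they do here was not tested.

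Genes that make or use the substrates of these enzymes were counted from short lists. Of 8 sinapate ester genes 3 were measured, and under water 2 were higher in des1, against 22% of all tested probe sets. These were REF1, an aldehyde dehydrogenase of sinapate synthesis (0.60 ± 0.10, limma adjusted p = 7.63e-05), and UGT84A3, a glucosyltransferase that makes hydroxycinnamoyl glucose esters (0.57 ± 0.11, limma adjusted p = 0.000317). The related UGT84A1 differed by 0.30 ± 0.13 without passing (limma adjusted p = 0.0829), but passed with quantile normalization run again (adjusted p = 0.0244). Under Na2S UGT84A3 was lower in des1 than in WT (-0.76 ± 0.11, limma adjusted p = 0.000853). With Na2S against water UGT84A1 rose by 0.70 ± 0.13 in des1 and by 0.95 ± 0.13 in WT. UGT84A3 fell by 1.31 ± 0.11 in des1 on the log2 scale and did not pass in WT. REF1 rose by 0.42 ± 0.10 in WT and did not pass in des1. Of 12 anthocyanin genes 5 were measured, and all 5 were higher in des1 under water, against 22% of all tested probe sets. The dihydroflavonol reductase gene DFR differed by 3.64 ± 0.12, and the anthocyanin glycosyltransferase genes UGT75C1 by 3.78 ± 0.15 and UGT79B1 by 3.26 ± 0.19. The flavonoid glucosyltransferase gene UGT78D2 differed by 2.35 ± 0.096. With Na2S in des1, 4 of the 5 were lower, against 19.6% of all tested probe sets, and UGT78D2 (-0.19 ± 0.096) did not pass. With Na2S in WT, UGT78D2 rose by 2.21 ± 0.096, while DFR fell by 1.26 ± 0.12 and UGT79B1 by 0.54 ± 0.19 on the log2 scale. UGT75C1 (0.03 ± 0.15) and the listed gene 5MAT (-0.23 ± 0.15) did not pass. The UGT79B1 call was lost with quantile normalization again (adjusted p = 0.0552) or centring (0.0521). It was also lost without any WT water array or WT Na2S replicate 1 or 2 (adjusted p up to 0.207).

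For the substrates of the BGLU enzymes the lists were thinner. Of 3 monolignol glucosyltransferase genes all 3 were measured: in des1 under water UGT72E2 was higher (0.41 ± 0.12, limma adjusted p = 0.00824), UGT72E3 differed by 0.17 ± 0.13 without passing, and UGT72E1 was lower by 0.37 ± 0.15 on the log2 scale (limma adjusted p = 0.0461), a call lost without des1 water replicate 1 or 2, any des1 Na2S array, WT water replicate 2 or 3 or WT Na2S replicate 2 (adjusted p up to 0.196), and also with quantile normalization again, centring, a trended robust variance, array weights or the replicate block (up to 0.0597). With Na2S UGT72E1 fell by 1.22 ± 0.15 in des1 and by 1.63 ± 0.15 in WT. Of 6 genes of abscisic acid glucose ester formation and abscisic acid breakdown 2 were measured: UGT71B6, which forms the ester that BGLU33 cleaves, was higher in des1 under water (0.74 ± 0.11, limma adjusted p = 2.1e-05), and UGT71C5, which forms the same ester, was lower (-0.56 ± 0.12, limma adjusted p = 0.000679). UGT71B6 was dim. Of 8 ER body genes 2 were measured, both dim. NAI2, which ER body formation needs, was lower in des1 under water (-1.16 ± 0.16, limma adjusted p = 5.29e-06), and its regulator NAI1 differed by -0.21 ± 0.11 without passing. None of 14 genes of glucosinolate breakdown was matched to a probe set of its own through the annotation used, which lists no gene for 8730 of the 22746 tested probe sets.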

How the data were processed

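The log2 values were used as deposited; the submitters' processing notes name RMA (background correction, quantile normalization and probe summary) and affy, give no version, and do not say if the 12 arrays were normalized as 1 set. RMA compresses the differences of dim probe sets. Of 22810 probe sets 64 were controls and 22746 were tested, and precision is set by how few arrays each group has. Groups came from the sample labels (3 arrays each, called biological replicates in the design text), with 0 columns unmapped. limma 3.58.1 in R 4.3.3 was fitted with 1 mean per group on all 12 arrays, with Benjamini-Hochberg adjustment over all probe sets in each of 6 comparisons, after being tested on simulated data, where it recovered 95.5% of 67 genes changed 2-fold among 22746 in the comparison under water. At 1.5-fold it recovered 71.6% there. For the interaction it recovered 82.1% at 2-fold and 28.4% at 1.5-fold, so smaller changes may not pass. False calls numbered 16 in the comparison under water and 5 for the interaction. The simulation changed 67 genes at 1.5-fold, 67 at 2-fold and 66 at 4-fold, far fewer than the 10166 called in the data under water. The adjustment depends on how many probe sets change, so these recovery shares may not carry over to the data. Gene names came from the platform annotation and a RefSeq gene table. The members and lists were chosen with earlier results of these data known. Every member is named, with array values for the 10 of largest range per family. Alternatives were quantile normalization again, centring, leaving out dim probe sets, a trended robust variance, array weights, only the compared arrays, a replicate block and leaving out each array; adding BGLU genes listed by synonym was chosen after seeing the data.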

Additional observations from a re-analysis of the deposited data

Results flagged for a closer look

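The effect of Na2S differed between des1 and WT for 18 members by the limma interaction test, each value being the difference between des1 and WT under Na2S minus that under water (log2). Among BGLU genes the values were 4.0 for BGLU44, 1.44 for BGLU42, 1.42 for BGLU16, 0.96 for BGLU33, 0.51 for BGLU15, -0.50 for BGLU47, -0.97 for BGLU40 and -1.15 for BGLU45. Among SCPL genes they were 1.27 for SCPL45, 1.19 for SCPL25, 1.17 for SCPL35, 0.97 for SCPL50, 0.95 for SCPL26, 0.63 for SCPL49, -0.66 for SCPL29, -0.67 for SCPL46, -0.88 for SCPL20 and -1.09 for SCPL48. The 18 are 37.5% of the 48 members, against 37.7% of all tested probe sets.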

How the results depend on the processing

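No difference that passed, in the reported fit or in an alternative, changed direction. Of the differences that passed in neither, 71 changed sign in at least 1 alternative, with sizes there of at most about 0.15 on the log2 scale. Of 5262 member values recomputed, 5112 stayed on their side of the threshold, 64 came to pass and 86 no longer passed. BGLU genes called in des1 against WT under Na2S numbered 1, against 2 without dim probe sets, 2 with a trended robust variance, 2 with array weights (BGLU33 was the added gene in these 3) and 2 with the BGLU genes listed by synonym. BGLU genes called for Na2S in des1 numbered 6, against 3 without dim probe sets, which leaves out the dim members by construction. With array weights SCPL genes called for Na2S in WT were 11, against 7, and BGLU genes 9, against 5; the cause was not tested. Leaving out 1 array gave 13 to 14 SCPL and 8 to 10 BGLU calls in des1 against WT under water, 0 and 1 under Na2S, 6 to 10 and 4 to 6 for Na2S in des1, 5 to 7 and 5 to 6 for Na2S in WT, 9 to 11 and 7 to 9 for the interaction, and 6 to 10 and 7 to 9 for des1 under Na2S against WT under water. Centring gave 4 higher and 1 lower BGLU gene for Na2S in des1, against 4 and 2, and moved the median of all probe sets by at most 0.063. Same-numbered arrays did not deviate together (correlations from -0.21 to 0.16, 1 of 18 above 0.1), and 1 of 12 arrays correlated best with its own number. With the replicate block, SCPL and BGLU calls were 13 and 9 in des1 against WT under water, 0 and 1 under Na2S, 9 and 5 for Na2S in des1, 6 and 5 for Na2S in WT, 11 and 8 for the interaction, and 9 and 8 for des1 under Na2S against WT under water.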

Other observations

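RefSeq lists 2 further measured genes as BGLU by synonym, which the naming rule leaves out because their symbols differ. PYK10 (BGLU23), the main β-glucosidase of the ER bodies, averaged 3.37 ± 0.10 in des1 Na2S, 3.45 ± 0.18 in des1 water, 3.61 ± 0.13 in WT Na2S and 6.69 ± 0.26 in WT water (log2, SD, n = 3 each). Only WT water stood above the lower quartile of the probe sets (3.81), and under water PYK10 differed between des1 and WT by -3.24 ± 0.13 (limma adjusted p = 8.72e-13), with the SE after the ±. WT water alone was high in BGLU44 too, and 11.5% of all tested probe sets had their WT water arrays above all others. Of the 2 measured genes of the ER body list, NAI2 was lower in des1 under water, at a dim level, and NAI1 did not pass. In the branch of the ER body β-glucosidases, BGLU25 was highest in WT Na2S, and the dim BGLU19 and BGLU24 had no call. ATA27 (BGLU20) averaged 2.97 ± 0.15 in des1 Na2S, 2.82 ± 0.0902 in des1 water, 3.77 ± 0.18 in WT Na2S and 2.89 ± 0.15 in WT water, so it was lower in des1 under Na2S (-0.80 ± 0.12, limma adjusted p = 0.000853) at a dim level. Both genes were chosen after their values were seen.

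The 3 probe sets that list a family gene beside another gene were dim in every group. The probe set of BGLU21 and BGLU22 averaged 3.09 ± 0.0624 in des1 Na2S, 3.0 ± 0.0551 in des1 water, 3.11 ± 0.02 in WT Na2S and 3.07 ± 0.16 in WT water. The probe set of SCPL36 and SCPL37 averaged 3.19 ± 0.085 in des1 Na2S, 3.11 ± 0.10 in des1 water, 3.29 ± 0.19 in WT Na2S and 3.0 ± 0.0351 in WT water, and was higher with Na2S in WT (0.30 ± 0.11, limma adjusted p = 0.0473).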
